A study of Homo sapiens with 7 samples.

Results

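The 8 genes described here encode structural and adhesion proteins of simple epithelia: the keratins KRT8, KRT18, KRT19, KRT20 and KRT23, the cadherins CDH1 and CDH17, and the adhesion glycoprotein EPCAM. GATA6 binding in windows around these genes was read from a list of chromatin immunoprecipitation sequencing (ChIP-seq) peaks of LS174T cells, a long-established line from a human colorectal carcinoma. A peak was taken as a member when its summit, the position of highest coverage, lay in 1 of 6 fixed windows of hg19 around the genes. KRT8 and KRT18 shared a window, as did KRT20 and KRT23. The windows held 25 of the 7568 peaks of the list, and no window was empty. Membership was set by position only and not by a measured value of a peak. The windows themselves were chosen with earlier results of these data known.

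The series comprised 7 libraries of LS174T cells grown with serum, in 5 groups. The peak list was taken to belong to the group of 3 libraries precipitated with an antibody to human GATA6. Whether it draws on all 3 of them is not stated in the sources used here. The other groups, with 1 library each, were input DNA without antibody and the histone modifications H3K27ac, H3K4me3 and H3K4me1, and they were not analysed here. The list gave each score once per peak and not by library. Replicate error and library depth are therefore unknown, and no test between groups was possible. All results come from 1 cell line.

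GATA6 is a transcription factor active in the intestinal epithelium and other tissues of endodermal origin, and its zinc fingers recognise a short core with the letters GATA. Keratins are the intermediate filament proteins of epithelia, and each filament pairs a type I with a type II keratin. KRT8 (type II) and KRT18 (type I) form the main pair of simple epithelia, and KRT19 and KRT20 are further type I partners in the intestine. Cadherins hold neighbouring cells together through calcium-dependent contacts between their outer domains.

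In the RefSeq annotation of GRCh38.p14, used here for names, gene lengths and order only, KRT8 and KRT18 were direct neighbours on chromosome 12, with KRT78, KRT79 and KRT4 on one side and EIF4B and TNS2 on the other. KRT20 and KRT23 were direct neighbours on chromosome 17 between KRT12 and KRT39. KRT19 lay on the same chromosome between KRT15 and KRT9. CDH1 on chromosome 16 lay between CDH3, the gene of P-cadherin, and TANGO6. CDH17 lay between PDP1 and GEM, and EPCAM lay on chromosome 2. Gene lengths ranged from 4052 bp for KRT18 to 98246 bp for CDH1. Gene positions in hg19 were not used here, so whether a peak lay at a start site, in an intron or between genes is not given, and a peak is tied to a window rather than to a gene.

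Promoter sequence, here the bases before an annotated start, was at hand for 2 of the 8 genes, and it is shown because it could be read directly. Whether either start is the main one of its gene was not examined. A regulatory role of these bases was not tested. RefSeq (GRCh38.p14) gave the 250 bases before 1 start of KRT20 (chr17:40885243-40885492, minus strand) and 1 start of KRT8 (chr12:52926470-52926719, minus strand). Capitals mark GATAA, the core that was searched, or its reverse complement TTATC.
KRT20: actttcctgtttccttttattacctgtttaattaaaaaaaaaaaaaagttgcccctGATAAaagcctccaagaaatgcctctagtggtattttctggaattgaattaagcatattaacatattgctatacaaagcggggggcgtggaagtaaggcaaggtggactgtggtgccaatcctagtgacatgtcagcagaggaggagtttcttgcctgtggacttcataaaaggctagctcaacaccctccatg
KRT8: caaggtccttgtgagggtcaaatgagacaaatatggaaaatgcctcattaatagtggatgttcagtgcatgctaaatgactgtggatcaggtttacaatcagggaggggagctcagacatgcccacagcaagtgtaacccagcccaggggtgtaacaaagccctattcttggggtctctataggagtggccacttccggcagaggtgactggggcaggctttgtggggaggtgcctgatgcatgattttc
The KRT20 sequence held 1 match, whose first base lay 194 bases before that start, and the KRT8 sequence held 0. Only 1 start per gene was read. KRT8 has a gene length of 52670 bp, and sequence before any other start of it was not examined. Of 35116 RefSeq promoters of this length, 7179 (20.4%) held a match on either strand, so 1 match in a pair of promoters describes these letters only. The promoter positions and the peak positions belong to different builds and were not set against each other.

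All 6 windows held at least 2 GATA6 peaks. Each window was set beside every tile of the same size laid end to end between the first and last summit of chromosomes 1 to 22 and X, as a description and not as a test. Of such tiles, the share with at least 1 peak was 36.3% at the size of the KRT8 and KRT18 window, 37.2% for KRT20 and KRT23, 31.4% for KRT19, 39.9% for CDH1 and for CDH17, and 35.1% for EPCAM. The median tile held 0 peaks at each size. The tiles cover gene-poor sequence as well, and the windows were placed on genes.

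**Figure D1:**
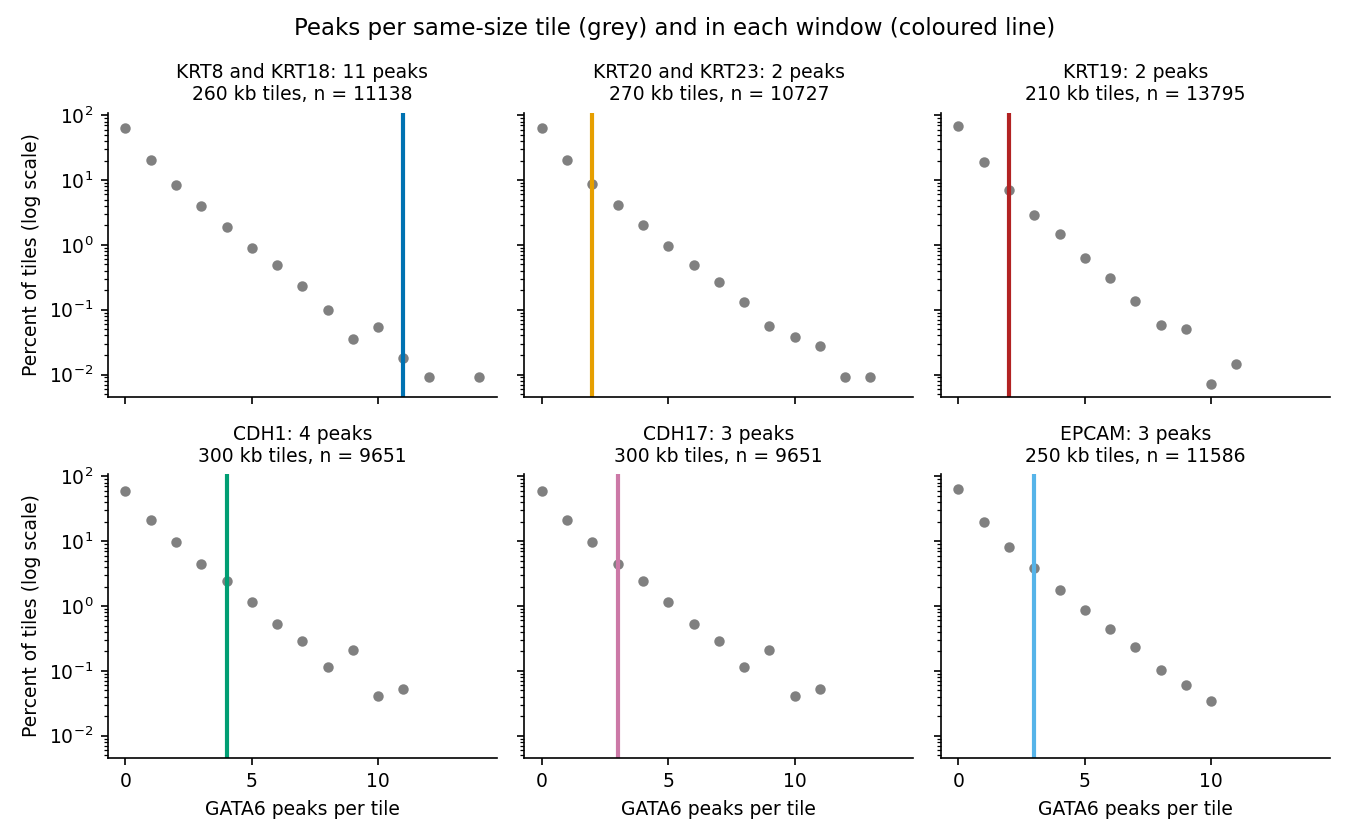
Number of GATA6 peaks per same-size tile (x axis) against the percent of tiles with that number (y axis, log scale), with 1 panel for each window; grey points are tiles and the coloured line is the window's own number of peaks. The KRT8 and KRT18 window, with 11 peaks, lies at the far end of its tiles, while the windows with 2 to 4 peaks lie at numbers that are more frequent among the tiles.

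The KRT8 and KRT18 window held the most peaks of the 6 windows, 11 in 260 kb of chromosome 12 (53.19 to 53.45 Mb), or 42.3 per Mb. Of 11138 tiles of its size, 4 (0.0359%) held as many or more. These tiles lay on chromosome 1 (14 peaks), chromosome 12 near 71.5 Mb (12 peaks), chromosome 3 (11 peaks) and chromosome 17 near 63.4 Mb (11 peaks), and none of them overlapped the window. On chromosome 12 alone the share was 1 of 508 tiles (0.197%). With only peaks of a fold of at least 10, the window held 7 peaks, and 14 of 11085 tiles (0.126%) held as many.

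The 9 middle peaks of this window lay from 41.5 kb before to 44.2 kb after its middle, and 5 of them formed a chain in which each summit was within 10 kb of the next. The chain ran from 53306744 to 53320166, with 13.3 kb between its first and last summits. The whole list held 7 chains of 5 or more peaks, with 38 peaks (0.503%) in all. Of 7470 runs of 5 neighbouring peaks in the list, 8 (0.107%) were as tight as this one or tighter. By that measure the chain was among the densest runs of GATA6 peaks in the list. It was taken as the tightest run of a window with many peaks, so this rank is not separate from the number of peaks.

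Within the chain, peaks were of ordinary height and closely packed. The first, from 53306744 to 53307436, was 693 bp wide, the 36th widest of 7562 peaks on chromosomes 1 to 22 and X. Its height was 21 fragments (95% Poisson interval 13.0 to 32.1), where the height is the pileup that the authors deposited at the summit. Its fold over the local background was 21.05. The summit lay at 19.4% of its width, away from the centre, whereas the median summit of the list lay at 48.7%. The next summit, 1.63 kb on, belonged to the peak with the largest fold of all 25, 26.06 at a height of 26 (17.0 to 38.1), from 53308396 to 53308724. The third peak followed after 1.17 kb, from 53309585 to 53309809, and rose to 11 fragments (5.49 to 19.7), 15.75 times its background. These 3 summits spanned 2.80 kb, and 38 of 7516 runs of 3 neighbouring peaks (0.506%) were as tight.

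The remaining pair of the chain lay near the middle of the window. The peak from 53318971 to 53319250 reached 18 fragments (10.7 to 28.4) at a fold of 14.73. Its partner, from 53319992 to 53320166, reached 10 fragments (4.80 to 18.4) at a fold of 9.55. Their summits were 0.991 kb apart, the closest neighbours among the members. Both intervals overlapped, and a difference between these heights was not tested. Joined as 1 peak, they left 10 peaks in the window, and 8 of 11138 tiles (0.0718%) of the joined list held as many.

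The highest peak of the KRT8 and KRT18 window lay outside the chain, 16.0 kb after the middle. It ran from 53335816 to 53336202 and reached 31 fragments (21.1 to 44.0) at a fold of 17.76. The lowest, of 8 fragments (3.45 to 15.8) at a fold of 7.64, lay 28.2 kb further on, from 53364212 to 53364386. The other 4 peaks outside the chain had heights of 9 to 14 fragments. One of them, from 53191086 to 53191367, lay only 1.26 kb inside the edge of the window, and the nearest peak outside that edge (height 11, fold 11.03) was 45.5 kb away from it. At the far side, the last peak (height 9, fold 18.39) lay 13.1 kb inside the edge. After it came 2608 kb without a peak, a distance that 1.62% of the 7539 distances between neighbouring summits reached. The same-size windows next to this one held 1 peak before it and 0 after it, so the high number was not that of the wider region.

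**Figure D2:**
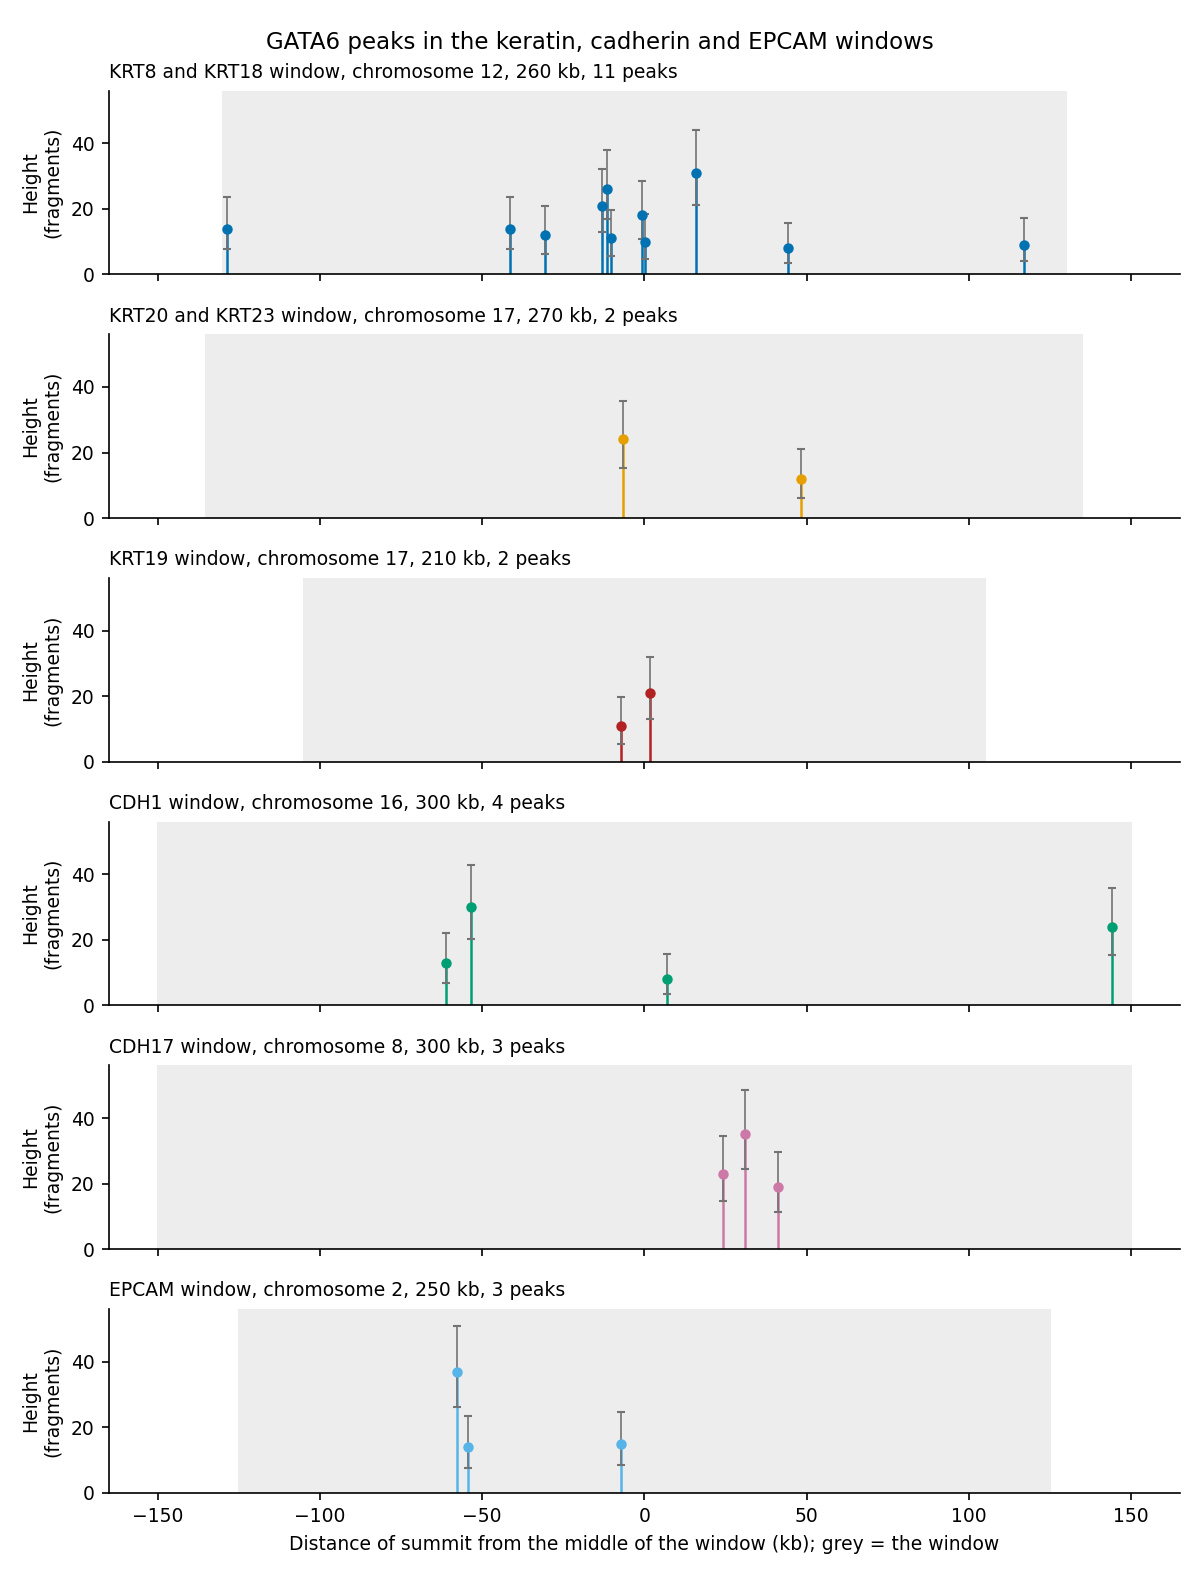
Height of each GATA6 peak in fragments (y axis, with exact 95% Poisson intervals) against the distance of its summit from the middle of its window in kb (x axis), with 1 panel for each window and the window in grey. Of the 11 peaks of the KRT8 and KRT18 window, 9 lie within 44.2 kb of the middle and the others near the edges. The 3 peaks of the CDH17 window lie together on one side, and those of the CDH1 window are spread over 205 kb.

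KRT20, a keratin of differentiated intestinal epithelium, and KRT23, a further type I keratin, shared a window of 270 kb on chromosome 17 (38.93 to 39.2 Mb) with 2 peaks. Of 10727 tiles of that size, 16.7% held as many, so this number is not unusual in the list. The higher peak, from 39058168 to 39058510, had 24 fragments (15.4 to 35.7) at a fold of 12.03 and lay 6.71 kb before the middle of the window. The lower one, from 39113169 to 39113381, had 12 fragments (6.20 to 21.0) at a fold of 6.01, the smallest fold of all 25 members. They were 55.0 kb apart, and both lay on a local background of 2.00 fragments, the highest level found among the members. With a fold of at least 10 required, the window kept 1 peak, and 32.5% of tiles then held at least 1.

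KRT19, the smallest keratin, which lacks the tail domain, lay in a window of 210 kb on the same chromosome (39.58 to 39.79 Mb) that also held 2 peaks. As many were found in 12.6% of 13795 tiles. Here the peaks were near the middle and near each other, 8.93 kb apart. The one from 39677537 to 39677744 lay 7.37 kb before the middle and had 11 fragments (5.49 to 19.7) at a fold of 15.75. The one from 39686452 to 39686713 lay 1.56 kb after it and had 21 fragments (13.0 to 32.1) at a fold of 20.05. No other peak lay within 564 kb before or 985 kb after this pair. The 380 kb between both chromosome 17 windows held 0 peaks, and so did the same-size windows on either side of KRT19.

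The keratin windows thus held 11, 2 and 2 peaks. The highest peaks of the 3 windows had 31, 24 and 21 fragments, with overlapping intervals. The intervals of the lower peaks on chromosome 17, with 12 and 11 fragments, did not reach that of the peak with 31. Differences in height between the windows were not tested. On chromosome 17 the tiles held 0.898 peaks on average at 270 kb and 0.698 at 210 kb, against 0.833 at 260 kb on chromosome 12. Neither window on chromosome 17 was rare among the tiles of its own chromosome, with shares of 21.1% for KRT20 and KRT23 and 16.9% for KRT19.

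CDH1 encodes E-cadherin, the classical cadherin of epithelial adherens junctions. Its window of 300 kb on chromosome 16 (68.67 to 68.97 Mb) held 4 peaks, and 4.81% of 9651 tiles held as many. On chromosome 16 alone, where the mean tile held 0.571 peaks against 0.780 in the list, the share was 6 of 298 tiles (2.01%). The highest peak, from 68766299 to 68766588, had 30 fragments (20.2 to 42.8) at a fold of 17.18. The one 7.52 kb before it, from 68758815 to 68759000, had 13 fragments (6.92 to 22.2) at a fold of 9.31, and the intervals of this pair overlapped slightly. A peak of 8 fragments (3.45 to 15.8) at a fold of 8.02 lay 7.10 kb after the middle, from 68826994 to 68827219. It shared the smallest height among the members with 1 peak of the KRT8 and KRT18 window.

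The last peak of the CDH1 window, from 68963983 to 68964189, had 24 fragments (15.4 to 35.7) at a fold of 17.18. It lay 137 kb from the third and only 5.91 kb inside the edge. The nearest peak beyond that edge (height 13, fold 4.34) was 95.9 kb away from it. In a window drawn 0.05 Mb narrower on each side 3 peaks were left, and with a fold of at least 10 there were 2, a number that 14.4% of tiles reached. The number for the CDH1 window therefore rests in part on low or outlying peaks.

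CDH17 encodes liver-intestine cadherin, a cadherin of the intestinal epithelium with a short cytoplasmic part that lacks the catenin-binding region of classical cadherins. Its window of 300 kb on chromosome 8 (95.03 to 95.33 Mb) held 3 peaks, and 9.24% of 9651 tiles held as many. All 3 lay close together on one side of the middle, from 24.2 to 41.2 kb after it. The middle one, from 95210765 to 95211048, had 35 fragments (24.4 to 48.7) at a fold of 17.54. Its neighbour from 95204086 to 95204540, which was 455 bp wide, had 23 fragments (14.6 to 34.5) at a fold of 16.47. The one from 95221036 to 95221332 had 19 fragments (11.4 to 29.7) at a fold of 19.05. All 3 intervals overlapped.

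The 3 peaks of the CDH17 window spanned 17.0 kb, and 3.87% of runs of 3 neighbouring peaks in the list were as tight. Peaks that share a window are close by construction, whereas the runs of the list were not limited to a window. The share is therefore not separate from the number of peaks. Each of the 3 peaks was above the median height of the list, 16 fragments, and above its median fold, 14.03. The CDH17 window was the only one of the 6 with this property. With a fold of at least 10 required the window kept its 3 peaks, and 6.1% of tiles then held as many. The distances to the next peaks outside the trio were 256 kb before and 231 kb after.

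EPCAM, an adhesion glycoprotein of the epithelial cell surface that is not a cadherin, lay in a window of 250 kb on chromosome 2 (47.47 to 47.72 Mb) with 3 peaks. Of 11586 tiles, 7.36% held as many. All 3 had a fold of at least 10, and with only such peaks 4.6% of tiles held as many. The peak from 47537048 to 47537383 was the highest of all 25, with 37 fragments (26.1 to 51.0) at a fold of 18.54, and it ranked 512th in height among the 7562 peaks. The next, 3.29 kb on, from 47540341 to 47540570, had 14 fragments (7.65 to 23.5) at a fold of 13.37, and its interval did not reach that of the first. The third, from 47587570 to 47587834, had 15 fragments (8.40 to 24.7) at a fold of 14.32 and lay 7.29 kb before the middle of the window.

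In the EPCAM window, no peak lay in the 132 kb between the third peak and the far edge. The flank before the window held 4 peaks, more than the window itself, and the flank after it held 0. The nearest peak before the window (height 18, fold 9.02) was 33.7 kb from its edge. Widening the windows by 0.1 Mb on each side raised the number for EPCAM from 3 to 5, and narrowing them by 0.05 Mb on each side left it at 3.

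As a whole, the 25 peaks had the heights that are usual in the list. Their median height was 15 fragments (range 8 to 37), against 16 (6 to 130) for the 7562 peaks on chromosomes 1 to 22 and X. Of the members, 8 of 25 (32%) had a height of at least 23 fragments, the upper quartile of the list, against 25.1% of all peaks. The median fold was 15.75 against 14.03, and 18 of 25 (72%) reached a fold of 10, against 76.5%. A −log10 q of at least 5 was found for 20 of 25 (80%), against 83.2%. None of these shares lay far from that of the list.

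The local background of the members, computed as height divided by fold, had a median of 1.22 fragments and ranged from 0.489 to 2.00, against a median of 1.05 and a maximum of 8.99 in the list. The highest peaks of the EPCAM window, the CDH17 window and the KRT20 and KRT23 window all lay on a background of 2.00 fragments. Those of the CDH1 window and the KRT8 and KRT18 window lay on 1.75, and that of the KRT19 window on 1.05. Low peaks also lay on a high background, with 12 fragments on 2.00 in the KRT20 and KRT23 window and 14 on 1.99 in the KRT8 and KRT18 window. The peak of 26 fragments in the latter lay on 0.998. The part of the background in these heights was not tested.

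**Figure D3:**
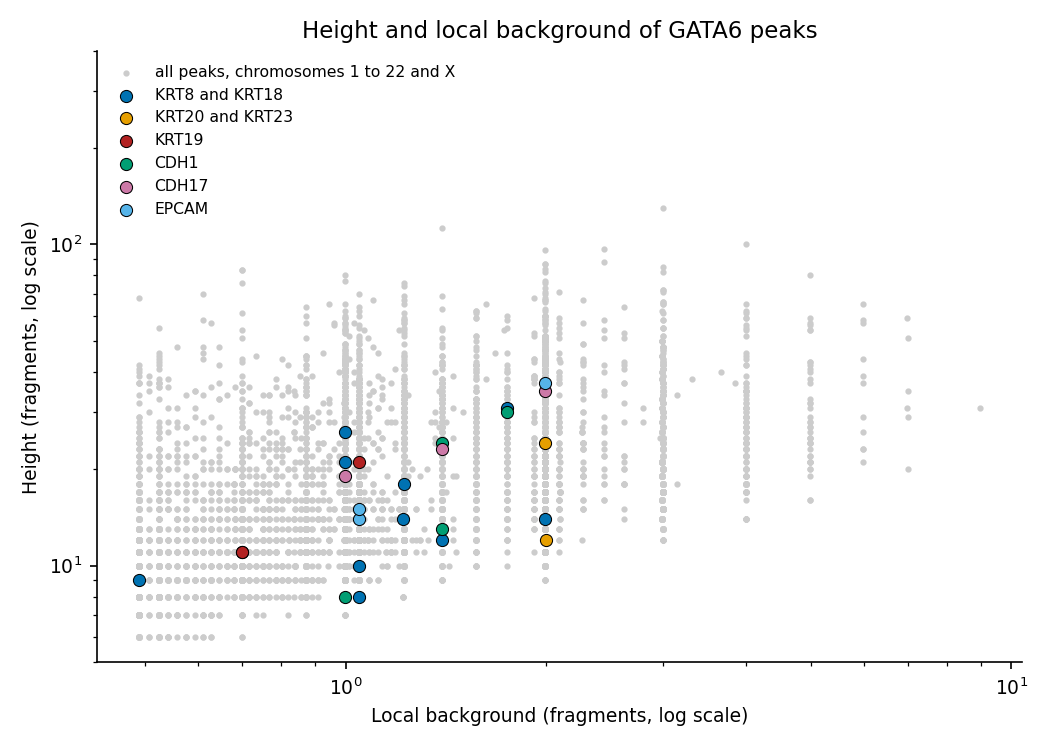
Height (y axis) against local background (x axis) in fragments, both on log scales, for all 7562 peaks on chromosomes 1 to 22 and X (grey) and for the 25 members (coloured by window). The members lie within the cloud, at backgrounds of 0.489 to 2.00 fragments and heights of 8 to 37.

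The highest peak was compared between windows and with tiles that held the same number of peaks. It ranged from 21 fragments for KRT19 to 37 for EPCAM, and in all 15 pairs of windows the Poisson intervals of the highest peaks overlapped. Overlap of intervals is not a test of a difference, and their order was not tested. Among tiles of its size with 3 peaks, the highest peak reached 37 fragments in 95 of 442 tiles for EPCAM and 35 in 102 of 428 for CDH17, where the medians were 25 fragments. For CDH1 the highest peak of 30 fragments equalled the median of 233 tiles with 4 peaks. For KRT19 it equalled the median of 967 tiles with 2 peaks, 21. For KRT20 and KRT23, 24 fragments stood against a median of 20 over 922 tiles. For KRT8 and KRT18 only 2 tiles held 11 peaks, and its 31 fragments stood against their median of 36.

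The more numerous peaks of the KRT8 and KRT18 window were not higher than those of the other windows. These 11 peaks had a median height of 14 fragments and a median fold of 14.73, against 20 fragments and 16.11 for the 14 peaks of the other 5 windows, with ranges of 8 to 31 and 8 to 37 that overlapped almost fully. All 3 members of the smallest width in the list, 175 bp, lay in it. In the list 9.03% of peaks had that width. Summed over its peaks, the window held 174 fragments at summits, against 32 to 77 in the other windows.

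Many of the members had a close neighbour. The median distance to the nearest other summit was 8.93 kb, against 43.0 kb for all peaks, and 13 of 25 (52%) had a neighbour within 10 kb, against 27.2%. Within 1 kb it was 2 of 25 (8%), against 7.31%. These 13 peaks came from 5 windows: 5 from KRT8 and KRT18 and 2 each from KRT19, CDH1, CDH17 and EPCAM. Any window with several peaks has short distances by construction, so number and spacing are not separate results. Over the 19 pairs of neighbours within windows the median distance was 10.7 kb, with a range of 0.991 to 137 kb.

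**Figure D4:**
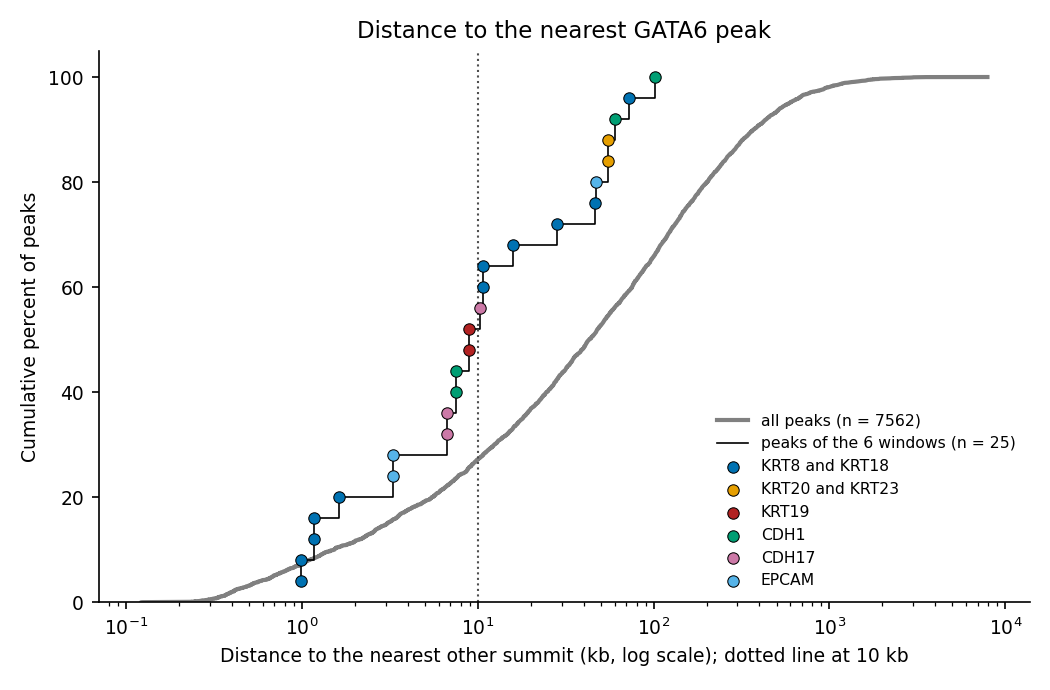
Cumulative percent of peaks (y axis) against the distance to the nearest other summit in kb (x axis, log scale), for all 7562 peaks (grey) and the 25 members (black steps, points coloured by window), with a dotted line at 10 kb. The members reach 52% at 10 kb, where all peaks reach 27.2%, and every member has a neighbour within 102 kb.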

How the data were processed

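The deposited file was 1 list of GATA6 peaks. Per the submitters' processing notes, CASAVA 1.8 and BWA 0.5.9-r16 were used for the GATA6 and input libraries, with build hg19. For the peak caller, its control and any pooling of libraries, the sources used here give nothing. Per the file headers, the authors gave each peak a pileup, a fold enrichment, and −log10 p and −log10 q values. The names of these scores give no unit or scaling. The pileup was read here as coverage in fragments, not scaled to depth, and the fold enrichment as a linear ratio. The Poisson intervals depend on that reading of the pileup. These scores are the authors' own and describe peaks within this list.

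From them, peaks on chromosomes 1 to 22 and X (7562, with 6 elsewhere) were assigned to windows by summit and compared with same-size tiles and with all peaks. Intervals are exact Poisson intervals at 95% and hold for counting error alone: without molecular identifiers, fragments need not be separate molecules. No test was run, since the list has no value per library and peaks are not replicates. Counting was tested on simulated data with planted peaks. The windows, genes and alternatives were chosen with earlier results of these data known. All 8 genes were named. All peaks were given in windows with 5 or fewer. In the larger window the rule took the highest, the lowest and the closest neighbours, and its other peaks were added after their values were seen. A list of 15 further epithelial genes was not used, as it needs hg19 gene positions. Alternatives were stricter thresholds, other window edges, joined summits and other tiles. Python 3.11.15 with numpy 2.4.6, pandas 2.3.3, scipy 1.17.1 and matplotlib 3.10.9 was used.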

Additional observations from a re-analysis of the deposited data

How the results depend on the processing

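The 25 peaks became 20 with a −log10 q of at least 5, 18 with a fold of at least 10, 30 in windows 0.1 Mb wider on each side, 22 in windows 0.05 Mb narrower, 25 by any overlap and 24 with summits within 1 kb joined. The median height ran from 14 to 21 fragments, the median fold from 13.85 to 17.18 and the median spacing from 9.88 to 22.9 kb. The 95% binomial intervals of the reported medians were 12 to 23 fragments, 11.46 to 17.54 and 6.70 to 55.0 kb. They are wide and treat peaks as independent, and the alternatives share most of their peaks. That all values stayed inside them therefore says little about stability. Without the KRT8 and KRT18 window, a choice made after seeing the data, they were 20 fragments, 16.11 and 10.3 kb. With a −log10 q of at least 5, the KRT20 and KRT23 window held 1 peak in place of 2. With windows starting every 10 kb, the share of tiles with as many peaks as the KRT8 and KRT18 window was 0.0418%, and without tiles in peak-free intervals over 3 Mb it was 0.0425%. The same omission raised the shares to 19.8% for KRT20 and KRT23, 15.0% for KRT19, 5.68% for CDH1, 10.9% for CDH17 and 8.71% for EPCAM. Among tiles of their own chromosome, the shares were 6.82% for CDH17 and 8.46% for EPCAM. No paired analysis was possible because the list has no value per library. For the same reason no library could be left out. Heights of 8 to 37 fragments have wide Poisson intervals, and differences between single peaks were not tested.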
